A study of Homo sapiens with 62 samples.

Results

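The 10 genes described here, of 29794 genes in the tables, are the ligands TGFB1 and TGFB2, the receptors TGFBR1, TGFBR2 and TGFBR3, the signal carrier SMAD3, the inhibitory SMAD6 and SMAD7, the SMAD repressor SKIL and ID1. They were picked by name from the rows of both cell lines. TGFBR3 was picked because its newly made RNA was lost after KLF5 degradation in only 1 of the 2 lines, so its values after that treatment are given as a description, without a test.

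TGF-beta is a secreted cytokine that signals through a pair of kinase receptors, TGFBR1 and TGFBR2, with TGFBR3 (betaglycan) as a co-receptor that binds ligand and presents it. The activated receptors phosphorylate the transcription factors SMAD2 and SMAD3, which enter the nucleus and switch on target genes. Among the early targets are SMAD6, SMAD7 and SKIL, which feed back to restrain the pathway, and ID1, an inhibitor of basic helix-loop-helix factors that also answers to BMP signals. In pancreatic ductal adenocarcinoma (PDAC) the pathway is known both for restraining epithelial growth and for promoting a mesenchymal state.

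The study asked which genes the Krüppel-like transcription factor KLF5 keeps switched on in PDAC. It used SLAM-seq, in which cells take up 4-thiouridine (4sU) and newly made RNA is recognised by T-to-C conversions in the reads (T>C reads). The lines AsPC-1 and T3M-4, both from human pancreatic cancer, carried the same genotype in every library, FKBP12-F36V-FLAG-KLF5_sgEndogenousKLF5: the endogenous KLF5 gene was cut by a guide RNA and replaced by a degradable tagged copy delivered with lentivirus. The cells were drug-selected, with no statement that they were single clones, and 4sU was present for 2 h.

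Degradation was set off with dTAGv-1 (dTAG) for 4 h, and its control was the compound dTAGv-1-NEG (NEG). The RUVBL1/2 ATPase inhibitor CB-6644 was given for 4 h in both lines and for 12 h in AsPC-1. NVP-2, an inhibitor of CDK9, the kinase that releases paused RNA polymerase, was given for 4 h in both lines. The control for both inhibitors was DMSO for the same time, so the CB-6644 and NVP-2 comparisons at 4 h share their DMSO libraries. AsPC-1 had 42 libraries: 10 NEG and 10 dTAG from 3 experiments, 5 DMSO and 5 CB-6644 at 4 h from 2 experiments, 4 with NVP-2, and 4 DMSO and 4 CB-6644 at 12 h. T3M-4 had 20, with 4 in each of the groups NEG, dTAG, DMSO, CB-6644 and NVP-2, from 2 experiments. Nothing in the labels says that libraries of an experiment came from separate cultures, so p-values measure the spread between libraries, which may be technical.

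Reads were counted at 3′UTR exons. T>C reads summed to 2240998 to 18311982 per AsPC-1 library and to 3714015 to 27982537 per T3M-4 library, and all reads to at least 82676553. The T>C share of all reads was 7.58% to 10.6% for AsPC-1 and 11.02% to 14.3% for T3M-4, and after NVP-2 1.35% to 1.91% and 1.80% to 2.80%. The line labels matched their markers: all 5 classical PDAC markers were at a median of 1 CPM (reads scaled to library size) or more in AsPC-1 and all 5 basal-like markers in T3M-4, against 1 of 5 basal-like markers in AsPC-1 and 2 of 5 classical markers in T3M-4. Of 5 fibroblast markers, 1 reached that level in each line. Because dTAG removes the KLF5 protein, KLF5 reads do not check it. The AsPC-1 libraries fell into 3 sets by their own expression, called A, B and C, with 17, 17 and 8 libraries. Sets A and B occurred in every AsPC-1 group, and set C only in experiment 2 of NEG, dTAG, DMSO and CB-6644 at 4 h. The T3M-4 experiments also stood apart for TGFBR3, as given with the inhibitors.

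TGFBR3 (ENSG00000069702.11) lies on the minus strand of chromosome 1, 91680343 to 91906335, in GRCh38 with the GENCODE annotation, and ID1 (ENSG00000125968.9) on the plus strand of chromosome 20, 31605283 to 31606515. They had the largest log2 changes of the list after dTAG, one in each line, so the 240 bases before their RefSeq start sites are shown, 5′ to 3′ on the gene's strand. Capitals mark CACCC or its reverse complement GGGTG, the core of Krüppel-like factor motifs, and GGGCGG or CCGCCC, a GC box.
TGFBR3: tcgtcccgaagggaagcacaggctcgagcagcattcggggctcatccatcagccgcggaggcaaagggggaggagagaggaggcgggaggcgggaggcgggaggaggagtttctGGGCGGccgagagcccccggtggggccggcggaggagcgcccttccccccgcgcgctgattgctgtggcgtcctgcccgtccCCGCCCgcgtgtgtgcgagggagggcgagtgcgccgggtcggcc
ID1: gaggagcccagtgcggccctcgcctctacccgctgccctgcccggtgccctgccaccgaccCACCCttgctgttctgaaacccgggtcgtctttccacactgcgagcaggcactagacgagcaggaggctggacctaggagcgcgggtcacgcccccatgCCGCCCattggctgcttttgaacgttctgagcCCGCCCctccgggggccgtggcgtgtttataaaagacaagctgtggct
The first is chr1:91886162-91886401 on the minus strand and the second chr20:31605039-31605278 on the plus strand, both in GRCh38.p14 from RefSeq. The TGFBR3 window held 0 CACCC and 2 GC boxes, and the ID1 window 1 CACCC and 2 GC boxes. Neither held CAGAC, the SMAD-binding core. Over both strands, 53.4% of 35116 RefSeq promoters of the same length held CACCC, 41.4% GGGCGG and 36.9% CAGAC, so these letters are common, and a match is not evidence of binding.

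The other members lie on chromosome 9 (TGFBR1, 99104038 to 99154192, plus), chromosome 3 (TGFBR2, 30606601 to 30694142, plus, and SKIL, 170357342 to 170396835, plus), chromosome 19 (TGFB1, 41301587 to 41353922, minus), chromosome 1 (TGFB2, 218345336 to 218444619, plus), chromosome 15 (SMAD3, 67063763 to 67195173, and SMAD6, 66702236 to 66782849, both plus) and chromosome 18 (SMAD7, 48919853 to 48950965, minus). Their measured 3′UTR exons held 21.8% (TGFB1) to 36.9% (SKIL) T. A read from a T-rich exon has more places to show a conversion, so levels and shares are compared between libraries and not between genes, except by rank. ID1 has 2 3′UTR records in the annotation. Its T>C counts were all even, and 1 all-reads count in each line was odd, so its CPM may count each read 2 times.

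In cells given DMSO, SMAD7 and ID1 carried the most label of the list in both lines. In DMSO at 4 h, the T>C share (T>C reads over all reads of a gene) of SMAD7 was 60.7% ± 4.10 (SD, n = 5) in AsPC-1 and 82.8% ± 3.04 (n = 4) in T3M-4, higher than that of 99.7% of the genes in each line. ID1 had 57.9% ± 3.33 and 84.7% ± 1.19, above 99.4% and 99.8% of genes. SKIL followed with 41.4% and 57.2%, SMAD6 with 34.5% and 52.6%, and TGFBR3 with 33.4% and 42.4%. TGFB2 (29.6% and 30.2%), SMAD3 (23.9% and 24.1%), TGFBR2 (21.3% and 32.4%) and TGFBR1 (13.3% and 18.4%) came next. TGFB1 was last in both lines, with 1.69% ± 1.24 and 3.50% ± 1.93, higher than 1.21% and 2.66% of genes. The medians over all genes were 15.5% (11976 genes) and 17.7% (13730 genes). Neighbours in this order, such as SMAD7 and ID1 or SMAD6 and TGFBR3 in AsPC-1, differed by less than their spread. A share is not a half-life, and no library without 4sU was used here to set the background of conversions.

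The lines differed in newly made RNA of 6 of the 10 members, a share near that of all genes. Relative to AsPC-1, T3M-4 in DMSO had more ID1 and less TGFBR2, TGFB2, SMAD3, SMAD6 and SKIL at an edgeR adjusted p under 0.05, where 48.4% of all genes tested differed. ID1 had 1765, 2156, 2358 and 2424 T>C CPM in T3M-4 and 86.8, 94.2, 251.9, 342.6 and 408.5 in AsPC-1. Every T3M-4 library was above every AsPC-1 library (9.19-fold higher, SE 0.44 on the log2 scale, edgeR adjusted p 0.00014). SMAD6 had 10.4 to 13.1 T>C CPM in T3M-4, below the AsPC-1 range of 38.9 to 68.9 (−2.21, SE 0.21, edgeR adjusted p 9.47e-06). TGFBR2, the receptor that binds ligand first, had 60.2 ± 3.88 against 142 ± 23.6 T>C CPM (−1.24, SE 0.17, edgeR adjusted p 0.000128), without overlap. SKIL (−0.73) and SMAD3 (−0.59) were lower in T3M-4 too. TGFB2 was lower (−1.94, SE 0.57, edgeR adjusted p 0.0147), but its groups overlapped, since 1 AsPC-1 library had 14.2 T>C CPM and the other 4 had 126 to 189.8. With the NEG libraries in place of DMSO the TGFB2 difference was −1.52 and did not pass (edgeR adjusted p 0.127). TGFB1, with few T>C reads, passed with NEG (1.79, edgeR adjusted p 0.00946) and not with DMSO (0.88, edgeR adjusted p 0.386). TGFBR3 had 16.04 and 29.97 T>C CPM in experiment 1 of T3M-4, 67.99 and 71.9 in experiment 2, and 33.8 to 58.1 in AsPC-1. The T3M-4 libraries thus lay on both sides of the AsPC-1 range and none within it, and the means of 46.5 ± 27.7 and 50.9 ± 10.4 did not pass a test of their difference (−0.13, SE 0.38, edgeR adjusted p 0.80). In all reads, 7 of 10 genes differed against 55.7% of all genes, SMAD7 being the addition (−0.86). The T>C share was higher in T3M-4 for TGFBR2 (0.61 on the log2 scale), SMAD6 (0.61), ID1 (0.55) and SKIL (0.47), 4 of 10 genes against 13.9% of all genes (limma adjusted p 0.0344, 0.043, 0.00293 and 0.0162), and the median over all genes was 0.21.

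After KLF5 degradation, newly made TGFBR3 RNA was at its NEG level in AsPC-1 and 4.57-fold lower in T3M-4, relative to the other T>C reads. In T3M-4, TGFBR3 had 7.65, 11.4, 12.2 and 12.6 T>C CPM in dTAG libraries, from 172 to 332 reads, and 36.5, 45.7, 56.9 and 61.3 in NEG libraries, from 802 to 1246 reads. All dTAG libraries lay below all NEG libraries, and the groups' means were 10.95 ± 2.25 and 50.1 ± 11.2. The log2 change was −2.19 (SE 0.25), with −2.11 in experiment 1 and −2.26 in experiment 2. In all reads, TGFBR3 had 3.70 to 9.53 CPM against 10.3 to 17.9 (−1.24, SE 0.32), and its T>C share was 16.2% to 36.4% against 39.4% to 45.9%. The T>C level was down by more than the total, which also counts RNA made before the treatment. In AsPC-1, TGFBR3 had a lowest, median and highest T>C level of 41.5, 51.9 and 86.4 CPM in dTAG and 41.5, 54.5 and 70.3 in NEG. These ranges lay on top of each other, with a log2 change of 0.01 (SE 0.15). Scaled by all reads, the change was −0.28 (SE 0.17) in AsPC-1 and −2.115 (SE 0.23) in T3M-4. Its changes within the 3 AsPC-1 experiments were 0.32, −0.16 and −0.28, all small beside the loss in T3M-4. The log2 difference between the lines was −2.18 (SE 0.28). These values chose the gene, so none of them is a test. In bulk samples, fewer cells with the transcript and less RNA per cell cannot be told apart.

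**Figure D1:**
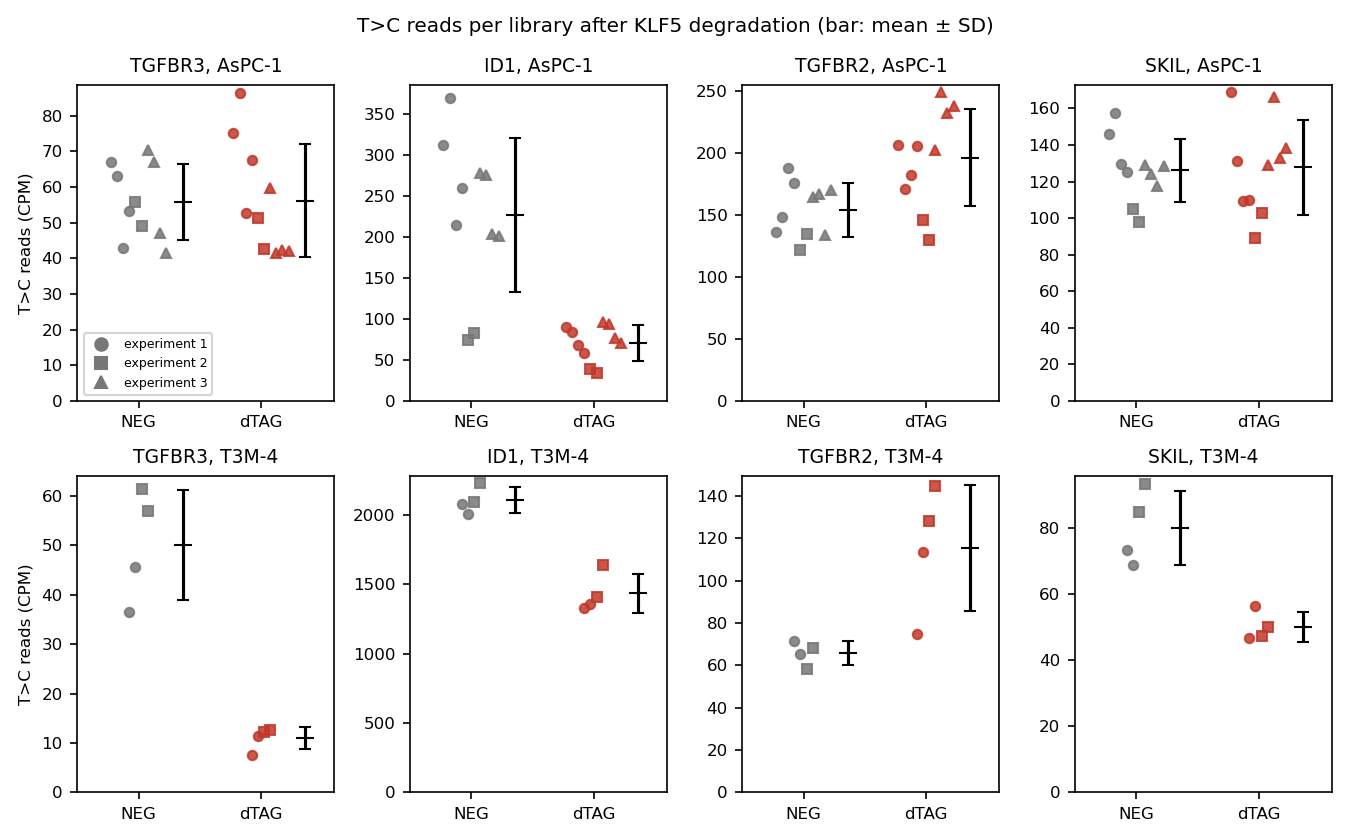
T>C reads (CPM, linear axis from 0) of TGFBR3, ID1, TGFBR2 and SKIL in each NEG and dTAG library of AsPC-1 (upper row) and T3M-4 (lower row). Each point is 1 library, its marker the experiment, and the bars give mean ± SD. TGFBR3 overlaps in AsPC-1 and drops from 36.5 to 61.3 down to 7.65 to 12.6 in T3M-4, while ID1 is lower in both lines.

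The other receptors did not follow TGFBR3. TGFBR2 in T3M-4 had 74.8, 113.7, 127.9 and 144.6 T>C CPM after dTAG and 58.1, 65.4, 68.3 and 71.6 in NEG. No dTAG library reached down into the NEG range, and the log2 change was 0.81 (SE 0.22). It missed the threshold over all genes (edgeR adjusted p 0.183) and passed with DESeq2 (0.82). The T>C share of TGFBR2 was also higher without overlap, 40.0% against 31.5% (0.34, limma adjusted p 0.367). In AsPC-1, TGFBR2 had a lowest, median and highest of 129.5, 203.9 and 249 T>C CPM against 122, 157 and 188, with 6 of 10 dTAG libraries above every NEG library (0.35, SE 0.12, edgeR adjusted p 0.155). With the experiment as a block it passed (0.33). TGFBR1 had −0.29 (SE 0.18) in AsPC-1 and 0.21 (SE 0.23) in T3M-4, neither past the threshold.

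Neither ligand passed the test. TGFB2 in T3M-4 had 80.1 and 80.8 T>C CPM after dTAG against 41.7 and 45.8 in NEG in experiment 1, and 38.7 and 46.2 against 25.5 and 31.3 in experiment 2. It was higher within each experiment and overlapped across them (0.77, SE 0.29, edgeR adjusted p 0.526), and passed with the experiment as a block (0.73), but not with counts summed per experiment (0.76). In AsPC-1 its change was 0.63 with an SE of 0.68, with levels that differed between the library sets, as described at the end. TGFB1 was near the limit of detection: in AsPC-1, 4 of 10 dTAG libraries had 0 T>C reads, which allows up to 0.305 to 0.3604 CPM (3 reads, counting error only), and the highest had 2.66 CPM. It fell under the count filter there, and in T3M-4 had 1.87 ± 0.886 against 2.66 ± 0.978 T>C CPM.

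ID1 was the member that passed the test after KLF5 degradation in AsPC-1. Its lowest, median and highest T>C level was 34.0, 74.0 and 96.2 CPM in dTAG against 74.5, 237 and 369.4 in NEG, with means of 71.2 ± 21.9 and 227 ± 93.7 (n = 10 each). Of the 10 dTAG libraries, 5 lay below every NEG library. The log2 change was −1.67 (SE 0.26, edgeR adjusted p 0.000467), a 3.19-fold lower level. The overlap came from experiment 2, whose NEG libraries had only 74.5 and 82.9 CPM. Within that experiment dTAG had 34.0 and 38.9, in experiment 1 58.2 to 90.8 against 214 to 369.4, and in experiment 3 71.2 to 96.2 against 201 to 279. So every dTAG library was below every NEG library of its own experiment. All reads gave the same size of loss (−1.73, edgeR adjusted p 0.00202), at 11.9 ± 4.13 against 39.7 ± 15.9 CPM. Without experiment 1 the change was −1.44 and missed the threshold (edgeR adjusted p 0.153), as it did when the libraries of an experiment were summed into 1 (−1.64, adjusted p 0.489).

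In T3M-4 the ID1 change was smaller. ID1 had 1328, 1359, 1412 and 1642 T>C CPM after dTAG and 2011, 2080, 2098 and 2235 in NEG. The groups did not overlap (−0.55, SE 0.15), but the edgeR adjusted p was 0.174, against DESeq2 and a fit with the experiment as a block, where it passed (−0.54 and −0.56). The difference between the lines in the ID1 change was 1.14 (SE 0.42, p 0.0108, edgeR adjusted p 0.695), so it was not shown to differ between them over all genes, though with the block it passed (1.07). In all reads of T3M-4, edgeR called 0 of the 9 members tested, against 0.0191% of all genes. There TGFBR2 had a log2 change of 0.51, TGFB1 −0.43, SKIL −0.54 and ID1 −0.46.

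SKIL, which binds SMAD3 and shuts off its targets, had 46.8, 47.2, 49.9 and 56.5 T>C CPM after dTAG in T3M-4 and 68.7, 73.4, 84.97 and 93.4 in NEG. All dTAG libraries were below all NEG libraries (−0.68, SE 0.17, edgeR adjusted p 0.150), and the call was made by DESeq2 (−0.66) and with the experiment as a block (−0.67). With counts summed per experiment, which leaves 2 values a group in T3M-4, edgeR called 0 of 9 members, SKIL (−0.68) and ID1 (−0.56) included. In AsPC-1, SKIL was at 127.9 ± 26.1 against 126 ± 17.4 T>C CPM (0.02, SE 0.12). The difference between the lines was −0.67 (SE 0.21, p 0.00297, edgeR adjusted p 0.510). SMAD7 in T3M-4 had 1.00, 2.00, 4.05 and 5.43 T>C CPM against 4.91 to 8.18, with overlap (−0.99, SE 0.49), and 0.16 in AsPC-1. SMAD3 (0.02 and 0.19) and SMAD6 (−0.08 and 0.01) had log2 changes near 0 in both lines.

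Counted over the list, 1 of 8 members tested passed in AsPC-1 (ID1, lower), where 2.4% of 11696 genes did, and the members' median of 0.02 lay beside 0.03 for all genes. In T3M-4, 0 of 9 passed by edgeR, where 0.834% of 13424 genes did. At an unadjusted p under 0.05 there were 4 of 9 (957 genes of all). DESeq2 called 3, and its share of all genes is not given here. The median was 0.01 for the members and for all genes. TGFBR3 is left out of these counts. The fits behind them hold no term for experiment or replicate number, and counts with such terms are given at the end. Between the lines 0 of 9 passed by edgeR, against 0.0426% of 14088 genes. At an unadjusted p under 0.05 there were 4 of 9 members and 824 of all genes.

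**Figure D2:**
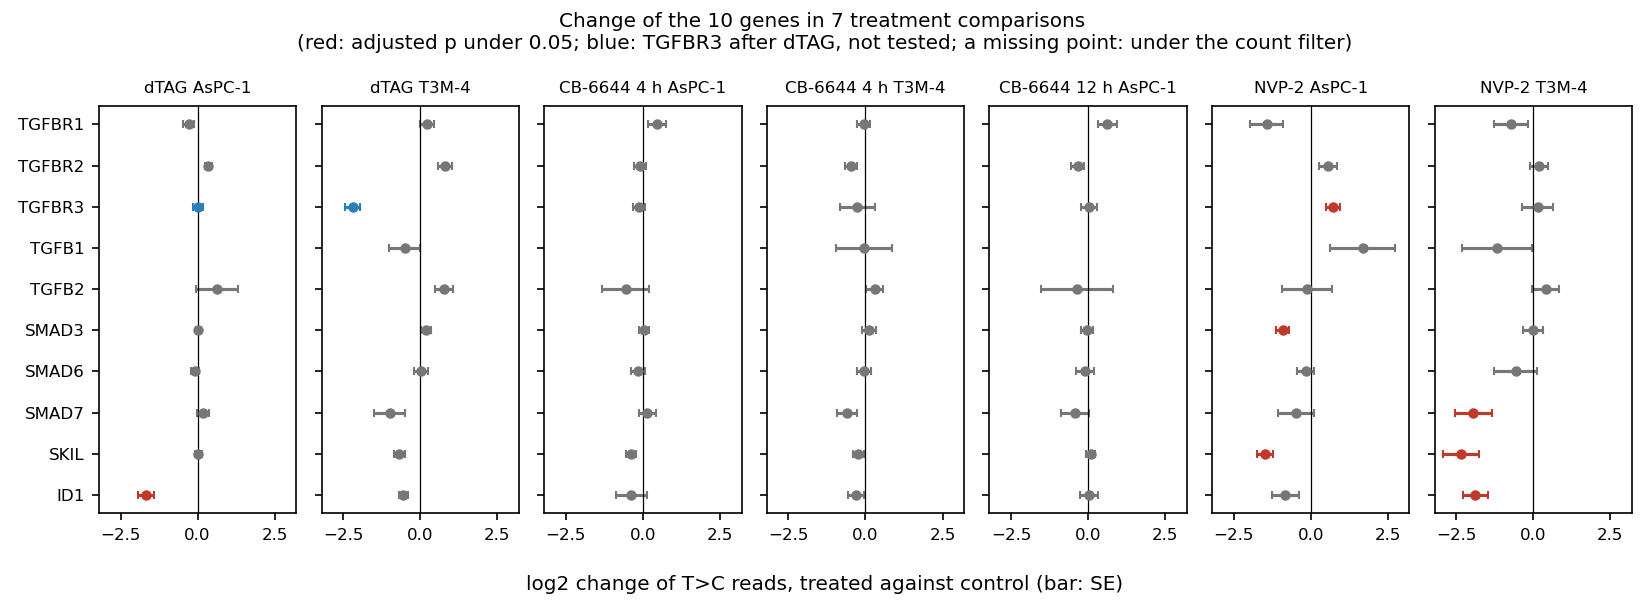
Log2 change of T>C reads, treated against control, for the 10 genes (rows) in 7 comparisons (panels), with SE bars. Red marks an edgeR adjusted p under 0.05, blue TGFBR3 after dTAG, which was not tested, and a missing point a gene under the count filter. TGFBR3 at −2.19 stands alone in the T3M-4 dTAG panel, red points after dTAG and CB-6644 are limited to ID1 in AsPC-1, and all NVP-2 values would shift down by about 3 if scaled by all reads, which turns TGFBR3 in AsPC-1 from 0.73 to −2.30.

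After dTAG in AsPC-1 the T>C share of the members was lower, as it was for most genes. The members' median change in share was −0.26 on the log2 scale and that of all genes −0.27, and 4 of 9 members passed (limma) where 32.1% of genes did. SKIL had a share of 26.2% to 32.8% in dTAG against 34.2% to 39.2% in NEG (9 and 10 libraries), with no overlap (−0.31, SE 0.05, limma adjusted p 0.000488). SMAD3 had 17.6% against 21.8% (limma adjusted p 0.00653), TGFBR2 18.0% against 21.5% (0.0129) and ID1 45.6% against 53.4% (0.0129). TGFBR3, described only, had 24.8% against 31.2%. With T>C reads scaled by all reads, the median of all genes after dTAG in AsPC-1 was −0.24, the calls over all genes moved from 54 higher and 227 lower to 10 and 1180, and the small positive changes of SKIL and SMAD3 (0.02 each) and SMAD7 (0.16) turned to −0.25, −0.27 and −0.10, while ID1 had −2.01. In T3M-4 the share passed in 0 of 9 members by limma and in 0.184% of genes. At unadjusted p under 0.05 there was 1 member, and 1069 of 15727 genes.

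No member passed the test in T>C reads after CB-6644. By edgeR, 0 of 9 members passed in AsPC-1 after 4 h, 0 of 10 in T3M-4, and 0 of 9 in AsPC-1 after 12 h. Without adjustment, p was under 0.05 for 1, 1 and 0 members. Over all genes edgeR called 0% in each of these comparisons, with 482, 569 and 473 genes at unadjusted p under 0.05, and DESeq2 called 1, 7 and 26 genes, none of them a member. The members' medians were −0.12, −0.15 and −0.03, against −0.01, 0.00 and −0.01 over all genes. With counts scaled by all reads the all-gene median in AsPC-1 at 4 h was −0.23.

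TGFBR3 overlapped its controls under CB-6644 in both lines. In T3M-4 it had 15.7, 17.7, 59.0 and 64.7 T>C CPM after CB-6644 and 16.5, 30.0, 69.1 and 73.2 in DMSO (−0.27). The low values were those of experiment 1 in both groups and the high values those of experiment 2, so the control level of TGFBR3 in T3M-4 itself varied by more between experiments than between these treatments. In AsPC-1 it had 48.6 ± 11.6 against 52.6 ± 10.8 T>C CPM at 4 h (−0.12) and 49.1 ± 15.9 against 48.0 ± 10.4 at 12 h (0.03). TGFBR2 in T3M-4 had 32.9, 42.6, 49.1 and 52.1 T>C CPM against 57.9 to 64.2, lower without overlap (−0.47, SE 0.19, edgeR adjusted p 0.994). SMAD7 in T3M-4 was also lower without overlap, 2.22 to 5.29 against 5.31 to 6.53 T>C CPM (−0.60, edgeR adjusted p 0.994). SKIL in AsPC-1 at 4 h had 90.6, 107, 120.5, 131 and 155 T>C CPM against 144 to 172, with 4 of 5 below every control (log2 change −0.38 with SE 0.15, edgeR adjusted p 0.979). At 12 h it was at 136.8 ± 9.87 against 129 ± 7.98, and the difference between the times was 0.46 (p 0.0373 unadjusted, edgeR adjusted p 0.9999). All 4 h libraries of this comparison are labelled batch 1 and all 12 h libraries batch 2, so time and batch cannot be told apart. TGFBR1 in AsPC-1 had 0.46 at 4 h and 0.63 at 12 h, neither past the threshold.

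One member passed in the T>C share. SMAD3 in AsPC-1 after 4 h of CB-6644 had a share of 16.7%, 17.0%, 17.0%, 18.1% and 18.2%, against 20.5%, 21.1%, 24.7%, 26.1% and 27.0% in DMSO. The groups did not overlap, at 17.4% ± 0.711 against 23.9% ± 2.95 (−0.45, SE 0.09, limma adjusted p 0.037). Its T>C reads had a log2 change of 0.03. Of all genes, 1.63% passed in this comparison, with a median of −0.21. SKIL had a lower share without overlap as well, 32.9% ± 1.95 against 41.4% ± 3.96 (−0.33, limma adjusted p 0.0944).

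NVP-2 lowered the label of nearly the whole list. The T>C share was lower at a limma adjusted p under 0.05 in 9 of 10 members in each line, against 86.4% of all genes in AsPC-1 and 81.1% in T3M-4. The members' median changes were −2.71 and −2.86 and those of all genes −3.01 and −3.08. The exceptions were TGFB1 in AsPC-1 (adjusted p 0.0816) and SMAD7 in T3M-4 (0.0797), both with few reads. In AsPC-1, SKIL fell from 41.4% ± 3.96 to 3.24% ± 1.19. The T3M-4 libraries had 57.2% ± 2.44 in DMSO and 3.21% ± 2.63 after NVP-2. TGFBR1 fell from 13.3% ± 4.09 to 0.596% ± 0.565 in AsPC-1. ID1 fell from 57.9% ± 3.33 to 25.3% ± 1.72 in AsPC-1, where SMAD7 was at 23.1% after NVP-2. In T3M-4, ID1 fell from 84.7% ± 1.19 to 18.9% ± 13.9, with 29.6% and 32.1% in experiment 1 and 6.57% and 7.26% in experiment 2. The NVP-2 libraries of AsPC-1 came from batch 2 and their DMSO controls from batch 1, so batch and treatment cannot be told apart there.

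**Figure D3:**
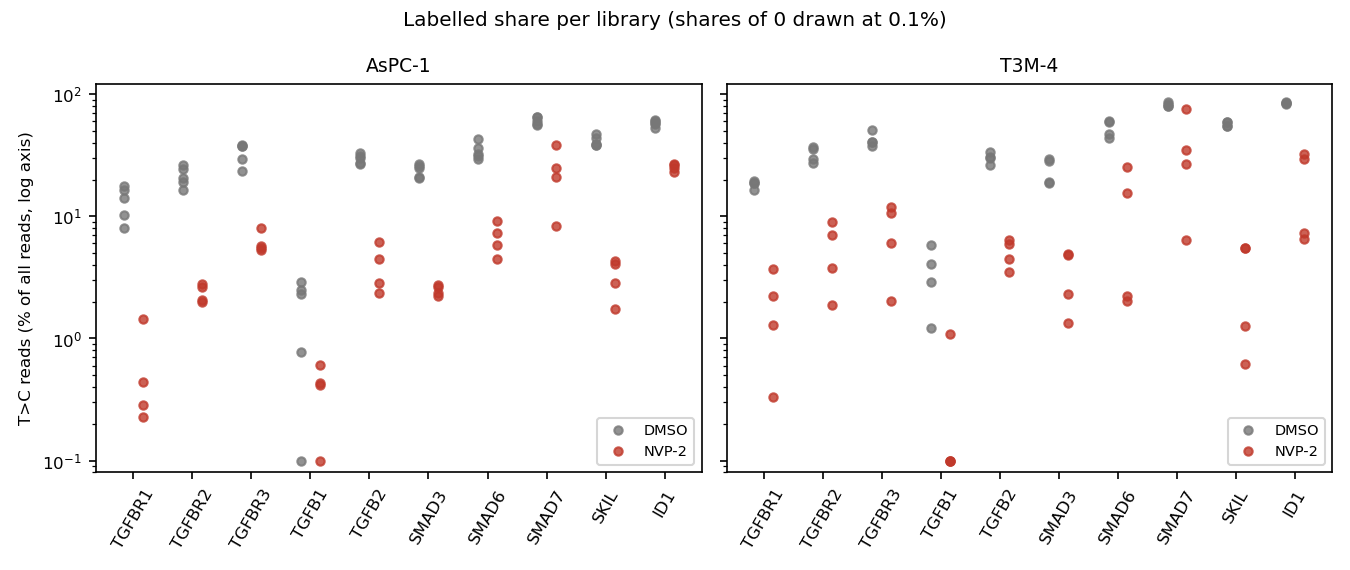
T>C share of reads (percent, log axis) of the 10 genes in DMSO and NVP-2 libraries of AsPC-1 and T3M-4, each point 1 library, shares of 0 drawn at 0.1%. The NVP-2 points lie below the DMSO points for every member but TGFB1 in AsPC-1, with SKIL near 3.24% and ID1 at 25.3% in that line.

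Because nearly all label is lost, T>C reads after NVP-2 say only which genes kept more or less than the rest. On that scale edgeR called 3 of 10 members in AsPC-1, where 30.5% of 11498 genes passed, and 3 of 10 in T3M-4, where 26.7% of 12242 genes did. The members' medians were −0.32 and −0.65, against −0.05 and −0.12 for all genes. Scaled by all reads, the all-gene medians became −3.05 and −2.97, and the calls over all AsPC-1 genes moved from 1488 higher and 2018 lower to 8 and 10650. In T3M-4 they moved from 1523 and 1740 to 10 and 10526.

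SKIL lost more than the rest in both lines. In AsPC-1 it had 25.6, 46.1, 55.2 and 61.2 T>C CPM after NVP-2 and 120, 121, 135, 137 and 142 in DMSO (−1.48, SE 0.26, edgeR adjusted p 0.00167). In T3M-4 it had 2.65, 7.04, 20.8 and 27.9 against 63.5, 63.9, 82.9 and 87.2 (−2.33, SE 0.58, edgeR adjusted p 0.014). No library of one group reached into the other, and the loss was −1.39 in T3M-4 experiment 1 and −4.13 in experiment 2. ID1 passed in T3M-4, with 219, 284, 626 and 779.9 T>C CPM against 1404 to 1999 (−1.88, SE 0.41, edgeR adjusted p 0.00715), again lower in experiment 2 (−2.97) than in experiment 1 (−1.14). In AsPC-1 its change was −0.83, with 97.4 to 131 CPM inside the DMSO range of 74.3 to 350. With the library set as a block it passed (−1.27, edgeR adjusted p 0.00532): NVP-2 was below DMSO in set A (−1.50) and set B (−0.90), and set C, with the low DMSO values, held no NVP-2 library. SMAD7 in T3M-4 had 0.670 to 2.104 T>C CPM, from 2 to 8 reads, against 4.28 to 5.04, from 93 to 131 reads (−1.96, SE 0.60, edgeR adjusted p 0.034), a call that was lost when any 1 of 5 libraries was left out (edgeR adjusted p 0.0737 to 0.0900). SMAD3 passed in AsPC-1 alone, with 266 to 415 against 485 to 727 T>C CPM (−0.90, SE 0.21, edgeR adjusted p 0.00785).

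TGFBR3 kept more of its label than most genes in AsPC-1. It had 62.7, 68.4, 74.8 and 83.3 T>C CPM after NVP-2 against 29.2, 41.3, 49.2, 49.3 and 49.6 in DMSO, higher without overlap relative to the other T>C reads (0.73, SE 0.23, edgeR adjusted p 0.0338), and lower by a log2 change of −2.30 when scaled by all reads. Its T>C share fell from 33.4% to 6.13%. The call was lost when any 1 of 2 DMSO or 2 NVP-2 libraries was left out (edgeR adjusted p 0.0587 to 0.0777) and with the library set as a block (0.55, adjusted p 0.156). In T3M-4 its change was 0.14 (−2.66 scaled by all reads), with 1.16 in experiment 1 and −0.44 in experiment 2. TGFBR2 had 0.56 in AsPC-1 (−2.50 scaled by all reads) and did not pass. The difference between the lines passed in 0 of 10 members by edgeR, against 0.851% of all genes. At unadjusted p under 0.05 there was 1 member (SMAD3, 0.87), and 1811 of 13159 genes.

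In all reads, ID1 and the feedback genes SMAD6, SMAD7 and SKIL were lower after 4 h of NVP-2 in both lines. No receptor or ligand passed the test. ID1 fell to 5.78, 5.97, 5.99 and 7.13 CPM in AsPC-1 from 14.2 to 68.5 (−2.67, edgeR adjusted p 0.00545), and to 52.8 to 56.3 in T3M-4 from 272.5 to 328 (−2.43, edgeR adjusted p 8.82e-05). SMAD7 fell by 2.27 on the log2 scale in AsPC-1 and by 3.05 in T3M-4 (edgeR adjusted p 0.013 and 0.00975). SMAD6 fell by 0.79 and by 1.17 (0.0159 and 0.0172), and SKIL fell by 0.79 and by 1.03 (0.0179 and 0.00865). SMAD3 fell in AsPC-1 (−0.68, edgeR adjusted p 0.024) and had −0.02 in T3M-4. Apart from SMAD3 in T3M-4, none of these groups overlapped. The receptors and ligands had −0.32 to 0.78 on the log2 scale and none passed. So 5 of 10 members passed in AsPC-1, against 11.8% of all genes, and 4 of 10 in T3M-4, against 5.16%.

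The members with more label in other libraries of the same line mostly lost more, but TGFBR3 did not follow. In T3M-4 it had a share of 42.9% and a change of 0.06, against 46.4% and −1.17 for SMAD6. In AsPC-1 it had 31.2% and 0.17, against 21.8% and −0.68 for SMAD3. The T>C share of each member in NEG libraries, which enter no NVP-2 comparison, ran from 1.35% for TGFB1 to 59.9% for SMAD7 in AsPC-1, and in T3M-4 these genes had 3.57% and 86.1%. Spearman's rho between that share and the all-reads change after NVP-2 was −0.830 in AsPC-1 and −0.745 in T3M-4 over the 10 genes, and −0.668 over 11998 genes and −0.599 over 13528 genes, given as descriptions. The 1200 and 1353 genes with the highest shares had a median change of −1.14 and −1.16, and the 5999 and 6764 with the lowest shares 0.29 and 0.22. The points share libraries and depth, and the part of base composition was not tested.

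**Figure D4:**
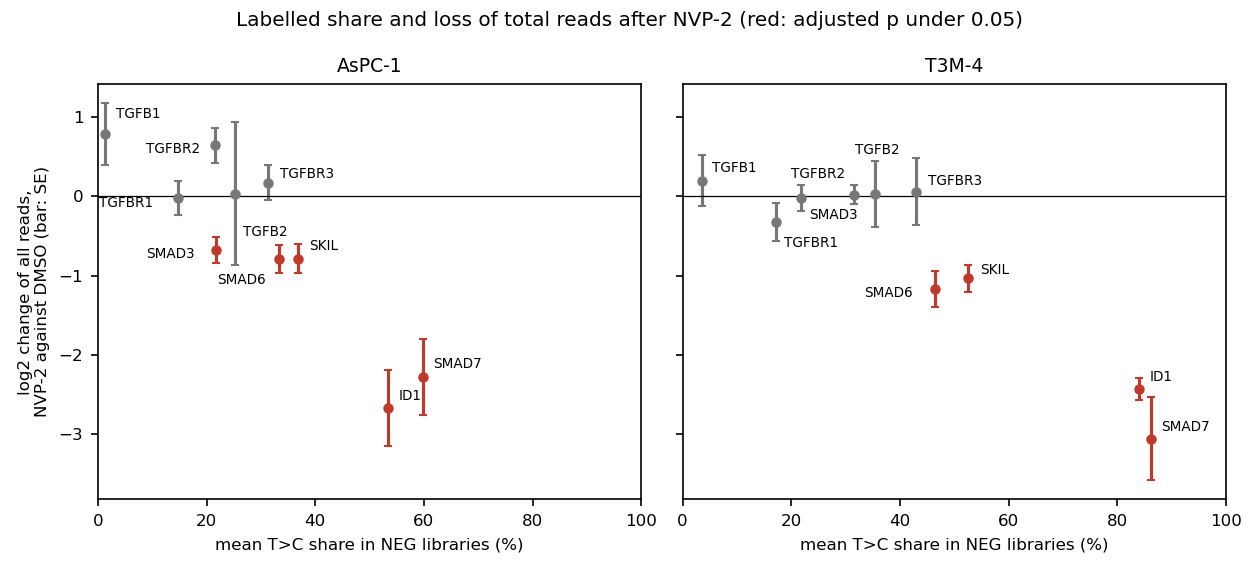
Mean T>C share in NEG libraries (percent, horizontal axis) against the log2 change of all reads after NVP-2 (vertical axis, SE bars) for the 10 genes in AsPC-1 (left) and T3M-4 (right). Red marks an edgeR adjusted p under 0.05. SMAD7 and ID1, with shares from 53.4% to 86.1%, have changes from −2.27 to −3.05, and the receptors and ligands lie between −0.32 and 0.78.

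TGFB2 split the AsPC-1 libraries more than any treatment moved it. In set B it had 6.52 to 25.7 T>C CPM (median 14.3, 17 libraries), in set A 123 to 371.5 (median 219, 17 libraries) and in set C 138 to 198.5 (median 166, 8 libraries). The range of set B did not touch that of the other sets, and every AsPC-1 group held libraries of both A and B. The sets were defined from the expression of other genes, with the 10 members left out, so they are a grouping of libraries and not one of the study's. ID1 in set C was at 34.2 to 92.9 T>C CPM (median 82.9), against medians of 301 in A and 195 in B. The dTAG change of ID1 was −1.76 in A, −1.68 in B and −1.11 in C. With the set and the experiment as a block, TGFB2 passed after dTAG in AsPC-1 (0.65). What the sets are was not tested.

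**Figure D5:**
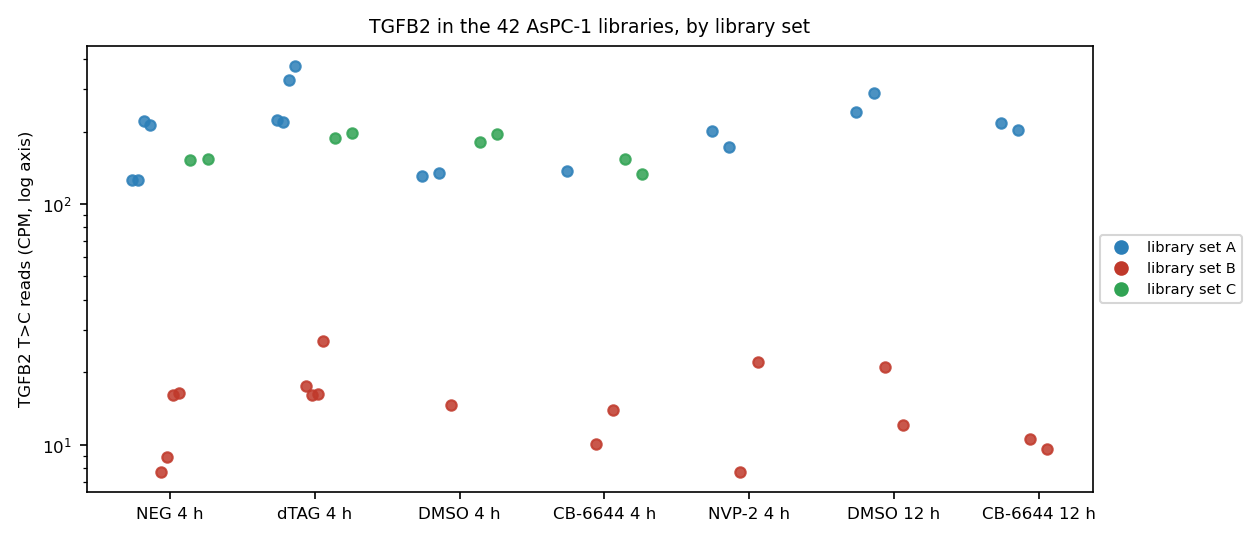
T>C reads of TGFB2 (CPM, log axis) in the 42 AsPC-1 libraries by treatment group, coloured by library set. Set B sits at 6.52 to 25.7 in every group and sets A and C at 123 to 371.5.

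By the Euclidean distance of the log2 changes in the 7 treatment comparisons, the genes most like TGFBR3 among the 10540 tested in all of them were REEP1 (distance 0.73), PITPNC1 (0.87), KLK11 (0.94), SERINC5 (1.09) and BAIAP2 (1.102), where the median gene was at 2.81. REEP1 had a dTAG change of −1.80 in T3M-4 and −0.08 in AsPC-1. KLK11 had −2.62 and −0.35. The other members ran from 2.50 for SMAD6 to 3.65 for SKIL, SMAD6 and SMAD7 (2.77) being nearer than the median gene, and TGFB1 was not tested in every comparison. The dTAG values that chose TGFBR3 weigh most in this distance.

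Among 64 other genes of the TGF-beta and BMP pathways, few passed after KLF5 degradation, and those that did were lower. In AsPC-1, 3 of 53 tested were lower by edgeR, against 2.40% of all genes called: the cell cycle inhibitor CDKN1A (−1.60, adjusted p 0.00154) and the AP-1 subunit JUNB (−1.34, adjusted p 0.00257), 2 of 12 listed targets tested, and the activin-binding protein FSTL3 (−0.89, adjusted p 0.00856). In T3M-4, 2 of 60 were lower, against 0.834% of all genes called, JUNB (−1.24, adjusted p 0.0276) and the procollagen protease BMP1 (−1.52, adjusted p 0.0408). None of the 7 and 9 other receptors tested passed, nor did any of the 5 and 6 genes listed as SMADs or their anchor ZFYVE9. After CB-6644, 0 of 53, 61 and 55 passed by edgeR. NVP-2 gave 6 higher and 14 lower of 53 in AsPC-1 and 8 higher and 18 lower of 58 in T3M-4, relative to the other T>C reads, so that 20 of 53 and 26 of 58 passed, against 30.5% and 26.7% of all genes. Of the 12 listed targets tested in AsPC-1, 6 were lower, among them SNAI2 (−3.24), and 2 were higher. Over all 11498 genes, 2018 were lower and 1488 higher. In T3M-4, 7 of 12 were lower, among them ID3 (−2.36) and ID2 (−2.85), the paralogs of ID1, and 1 was higher. Over all 12242 genes there, 1740 were lower and 1523 higher.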

How the data were processed

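SLAM-seq was performed on polyA RNA of 62 libraries in 12 groups. Per the study's methods, the authors mapped single-end reads with slamdunk at default settings to hg38 3′UTR exons of GENCODE (slamdunk version not given in the sources used here) and summed exons per gene. The deposited values are counts per gene, one table of T>C reads and one of all reads per line, neither normalized. Together the tables held 18 unnamed empty columns, which were not used. The all-reads column of 1 AsPC-1 dTAG library (experiment 3, library 1) was left out, since it was identical to the T>C column of AsPC-1 DMSO 12 h library 2. The dTAG library's T>C counts exceeded it in 8047 genes, against 0 genes in the other libraries. Shares and all reads thus have 9 AsPC-1 dTAG libraries. ID1 counts were even in all 42 AsPC-1 and 20 T3M-4 T>C columns and in 40 of 41 and 19 of 20 all-reads columns, so each read may be counted 2 times (the annotation used here has 2 3′UTR records for ID1), and its levels are uncertain by that factor.

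T>C counts and all-reads counts were tested with edgeR 4.0.16 (quasi-likelihood, TMM, filterByExpr) within each line and comparison, and Benjamini-Hochberg adjusted over all genes that passed the filter, with 0.05 as the threshold. The dTAG, CB-6644 and NVP-2 changes were compared between lines, and CB-6644 between times, by an interaction term. CPM are scaled within a comparison, so a DMSO library has slightly different CPM in different comparisons. The labelled share was tested with limma 3.58.1 on log2 of T>C reads plus 0.5 over all reads plus 1. DESeq2 1.42.0, RLE scaling, no filter, scaling by all reads, blocks, sums per experiment, other share offsets (2 and 4), single experiments or batches and leaving out libraries were alternatives. Since T>C reads are a small part of a library, scaling within them hides a loss common to all genes. The steps were tested on simulated counts with R 4.3.3, and tables and plots were made with Python 3.11.15, pandas 2.3.3, numpy 2.4.6 and matplotlib 3.10.9.

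AsPC-1 library sets came from Ward clustering into 3 clusters on the 500 genes most variable among all NEG and DMSO libraries, members left out. The number before the point in a replicate label was taken as the experiment (12 h labels have no point, and each number was used as it stands). In T3M-4 it equals the batch label. In AsPC-1, experiments 1 and 2 are batch 1 and experiment 3 is batch 2, except that all NVP-2 and 12 h libraries are batch 2. Between same-numbered libraries, the correlation of deviations from group means was 0.275 to 0.650 for dTAG in AsPC-1, 0.354 to 0.609 in T3M-4, −0.055 to 0.530 and 0.242 to 0.520 for CB-6644 at 4 h, 0.233 to 0.754 at 12 h, and 0.079 to 0.460 for NVP-2 in T3M-4.

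The members and gene lists were chosen with earlier results of these data known. Of the 64 other pathway genes, up to 4 with the smallest p among those past the threshold were eligible to be named per comparison, and TGFBR3's nearest genes are the 5 at the smallest distance. The members' 24 promoter records come from RefSeq. Neither unlabelled libraries nor spike-in RNA were used here. Depth limits TGFB1 and SMAD7 most.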

Additional observations from a re-analysis of the deposited data

Results flagged for a closer look

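In groups of 4 to 10 libraries, 10 of 120 gene and group pairs held a library whose gap to the nearest other library was larger than Dixon's 95% limit, where chance flags about 1 in 20. All values are T>C CPM within the gene's treatment comparison, and no explanation was tested.

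Among the receptors, TGFBR3 had 69.31 in AsPC-1 CB-6644 4 h library 1.1, against 44.77 in the next. TGFBR1 had 9.703 in AsPC-1 DMSO 4 h library 2.1, against 19.87, and 14.43 in AsPC-1 NVP-2 library 1.2, against 3.776. The ligand TGFB1 had 2.663 in AsPC-1 dTAG library 3.3, against 1.131, and 2.491 in T3M-4 NVP-2 library 1.2, where the other 3 libraries were at 0. SMAD3 had 514.1 in T3M-4 dTAG library 1.1, against 415.1, 737.9 in AsPC-1 CB-6644 12 h library 1, against 953, and 156.6 in T3M-4 NVP-2 library 2.2, against 407.4. SMAD7 had 16.35 in AsPC-1 CB-6644 4 h library 1.1, against 9.613, and SKIL 141.3 in AsPC-1 DMSO 12 h library 1, against 126.3.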

How the results depend on the processing

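Of 171 alternatives, 18 for the TGFBR3 change after dTAG in T3M-4 and the others for counts of members that passed, 156 left the value much as reported (for counts, within 1.5 times), and of 216 alternative values of single genes 193 kept direction and call, 22 missed the threshold and 1 reversed. After dTAG in AsPC-1 (1 reported), the experiment as a replicate block gave 2, the full replicate number as a block 3, set and experiment as a block 3, and sums per experiment 0. Leaving out an experiment gave 0 to 1. The share there (4 reported) gave 7 with the block. After dTAG in T3M-4 (0 reported), DESeq2 gave 3, the experiment block 3 and the full-number block 1. Between lines after dTAG (0 reported), the block gave 1. After NVP-2 in AsPC-1 (3 reported), scaling by all reads gave 9 and all reads 5. In T3M-4 (3 reported) scaling by all reads gave 10 and sums per experiment 0. Leaving out a library gave 2 to 3 in each line. TGFBR3 after dTAG in T3M-4 was −1.24 in all reads against −2.19, and −2.32 to −2.04 with a library left out. TGFBR3 after NVP-2 in AsPC-1 reversed to −2.30 when scaled by all reads. Pairing changed no other count of calls by more than 1.5 times. SMAD7 after NVP-2 in T3M-4 was −2.06 (edgeR adjusted p 0.0951) with the full-number block. For NVP-2 in AsPC-1 alone no paired analysis was possible, because its NVP-2 and DMSO libraries came from different batches. The line contrast in DMSO gave 6 to 7 (6 reported). Shares of all genes are not given for most of these settings, so a changed count is not a result about the members. After NVP-2, scaling by all reads raised the calls over all genes as well, as given with that treatment. The causes of these shifts were not tested, except that scaling by all reads restores a loss common to all genes by construction, and sums per experiment leave 2 or 3 values a group. TGFB1 and SMAD7 rest on few T>C reads.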
